A study of Mus musculus with 12 samples.

Results

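The genes described here encode the proteins of the cytosolic ribosome of the mouse, measured in c-Kit(+) cells of the heart before and after myocardial infarction (MI). They were chosen by name alone, as the genes named Rpl or Rps with a number (and an optional a, l, x or y), with Rpsa, Rplp0, Rplp1 and Rplp2 and without pseudogenes and the Rps6k kinases. The rule found 52 of 15223 listed genes, 32 of the large and 20 of the small subunit. In the GENCODE M21 annotation the rule matches 80 coding genes, and 29 of these were not analysed here, among them Rpsa, Rps6, Rps4x, Rpl3, Rpl10, Rpl10l, Rpl39l and Rps27. For 51 genes the deposited ID carries the same name in GENCODE M21. The row named Rpl24 carries an ID that GENCODE M21 gives to Zbtb11, a neighbouring gene on chromosome 16, so its values may not be those of Rpl24.

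The cytosolic ribosome translates nuclear-encoded mRNA. Its small subunit reads the mRNA, its large subunit joins the amino acids, and each particle holds 1 copy of nearly every ribosomal protein beside its ribosomal RNA. Cells tend to make these proteins in matched amounts, and many of their mRNAs start with a run of pyrimidines, the terminal oligopyrimidine tract, through which mTOR signalling and the protein Larp1 set how well they are translated. In most tissues ribosomal protein mRNAs are among the most abundant, and their transcription follows growth.

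RNA was sequenced from c-Kit(+) cells isolated from hearts of C57BL/6 c-KitCreERT2/mTeG mice, whose c-Kit promoter drives a tamoxifen-inducible Cre that switches on eGFP, so that cells are marked by present or past c-Kit activity. Mice of 8 weeks were given tamoxifen at 0.5 mg per day over 14 days, and vehicle or Sfrp2, a secreted Wnt-binding protein, 2 days after MI. The groups were pre-MI (cells taken 1 day before MI, n = 3), day 1 after MI (n = 2), day 12 with vehicle (n = 3), day 12 with Sfrp2 (n = 3) and, from sham-operated mice, cardiomyocytes (n = 1). Both alleles and the tamoxifen are stated for all mice, so no group lacks them, and the labels do not say whether libraries came from separate or pooled animals. P-values therefore reflect how far these libraries differ from one another, and part of that may be technical. The day 1 libraries are labelled vehicle although treatment came on day 2, and the tables' columns name day 14 where the labels name day 12.

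The listed genes held 200641 to 3570993 reads per c-Kit(+) library, of which 97073 to 382258 lay outside mitochondrial genes and 4 predicted genes with very high reads, called satellite-like here. Satellite-like genes took at most 0.225% of reads pre-MI, 4.67% and 3.38% at day 1, 15.2%, 1.09% and 38.0% in day 12 vehicle replicates 1, 2 and 3, and 3.46%, 18.4% and 12.5% in day 12 Sfrp2 replicates 1, 2 and 3. Day 12 vehicle replicates 1 and 3 and Sfrp2 replicates 2 and 3 thus stood apart, and the medians of the day 12 comparisons with pre-MI are given with and without them. Kit, the gene that names the cells, was between 3.44 and 33.7 normalized counts in every c-Kit(+) library and at 0 in the cardiomyocyte library. Values are the authors' normalized counts, reads divided by a size factor per library, and log2 differences are of the value + 1, which understates changes of low genes.

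The sequences around the start sites of 7 of the genes named below are printed here. All but that of Rplp0 show a pyrimidine run, which was found near the start of most, but not all, of the genes with a known start. These 7 are examples, not a sample from which the frequency of the run can be read. The 60 bases are centred on the start site, 30 bases to either side, 5′ to 3′ on the gene's strand, from RefSeq on GRCm38.p6, and capitals mark the longest run of at least 9 pyrimidines where there is one.
Rpl4 (chr9:64173357-64173416, plus strand): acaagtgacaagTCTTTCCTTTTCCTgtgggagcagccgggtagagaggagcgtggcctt
Rpl14 (chr9:120571487-120571546, plus strand): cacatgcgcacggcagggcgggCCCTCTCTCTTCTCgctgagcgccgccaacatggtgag
Rps9 (chr7:3704011-3704070, plus strand): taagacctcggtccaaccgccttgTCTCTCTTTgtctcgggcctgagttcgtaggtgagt
Rpl13a (chr7:45128716-45128775, minus strand): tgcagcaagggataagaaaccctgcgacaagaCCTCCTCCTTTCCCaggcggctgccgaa
Rpl26 (chr11:68901536-68901595, plus strand): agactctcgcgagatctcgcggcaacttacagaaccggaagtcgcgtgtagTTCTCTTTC
Rpl11 (chr4:136053364-136053423, minus strand): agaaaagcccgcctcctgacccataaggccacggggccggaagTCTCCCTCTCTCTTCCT
Rplp0 (chr5:115559437-115559496, plus strand): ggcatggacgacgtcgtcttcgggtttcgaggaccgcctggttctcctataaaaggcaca

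Of these, Rpl14 and Rps9 have the run across the annotated start, Rpl4 has it before and Rpl13a, Rpl26 and Rpl11 after, and Rplp0 has none. A RefSeq start site was matched for 39 of the 51 genes left without the Rpl24 row. A pyrimidine run of at least 9 bases on the gene's strand in these 60 bases was found for 24 of 39 (61.5%), against 19.0% of 10580 listed genes. In the 300 bases from 250 before to 50 after the start, and on either strand, CCGGAA, the core bound by ETS factors, was found for 59.0% against 25.6%. AAGATGGC, the core bound by Yy1, was found for 10.3% against 4.52%. GGGCGG, the core bound by Sp1, was found for 61.5% against 62.5%, and TATAAA for 10.3% against 10.1%. None of these motifs contains another, but CCGGAA on either strand may overlap a pyrimidine run. A gene with several start sites was counted once, if any of them held the motif, and a match describes letters, not a bound site.

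Before MI the ribosomal protein genes were detected at low depth and unequal levels. They held 754, 423 and 716 reads in replicates 1, 2 and 3, so that 1, 5 and 5 of the 52 genes were at 0. Their median value per exon kb lay at percentile 88.9, 88.0 and 88.7 among all listed genes of these libraries. Levels between genes are compared per exon kb here. Rplp1, a protein of the stalk that recruits elongation factors, was highest with 50.7 ± 17.1 normalized counts per exon kb (SD, n = 3). Rpl4, which lines the exit tunnel of the nascent chain, followed with 43.7 ± 3.95, and Rpl32 with 36.7 ± 12.5. These 3 do not differ beyond their spread. The small subunit gene Rps15 was at 27.4 ± 10.7 and the large subunit gene Rpl37a at 17.5 ± 3.48. The spread of Rps15 overlaps that of Rpl32 above it and of Rpl37a below it.

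The other stalk genes were lower than Rplp1, which lay at percentile 99.3 of all listed genes per kb. Rplp0, the stalk base, lay at percentile 97.2, and Rplp2 at 85.4 with 3.36 ± 2.54 normalized counts per exon kb. Rpl5 and Rpl11, which enter the ribosome together and bind Mdm2 when free, were at 0.789 ± 0.683 and 0.456 ± 0.395, on 9 and 3 reads. Rps27a, which encodes a ribosomal protein fused to ubiquitin, was at 0.463 ± 0.455 on 2 reads. Rps16 was lowest with 0.299 ± 0.518, on 1 read. Of genes with a tissue-restricted or stress-linked paralogue, Rpl3l, the form of striated muscle, was at 1.30 ± 1.15 and Rps27l at 4.29 ± 3.52. Rpl39, a small protein of the exit tunnel, was at 6.62 ± 0.558.

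The authors kept reads that mapped to a single place, and ribosomal protein genes have many processed pseudogenes. For each gene, the share of 50-base windows of its coding transcripts that no other annotated gene's transcripts contain had a median of 70.0% over the 52 genes, from 14.6% for Rpl5 to 100% for Rpl3l. The 29 genes not analysed here had a median of 50.5%. Pseudogenes that share a window numbered 6.5 per analysed gene in the median, and 12 for the others. Across the 52 genes the pre-MI level per kb had a Spearman correlation of 0.26 with the unique share and of -0.47 with the number of such pseudogenes, as a description across genes that share libraries and are not independent. Rplp1 had the highest level with 40.0% unique windows. The exons of 25 genes overlap another annotated gene, such as Snord16a in Rpl4 and Snord21 in Rpl5. The labels do not say that strand was used, and reads of overlapping genes then cannot be told apart. Levels of genes with few unique windows are therefore uncertain.

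**Figure D1:**
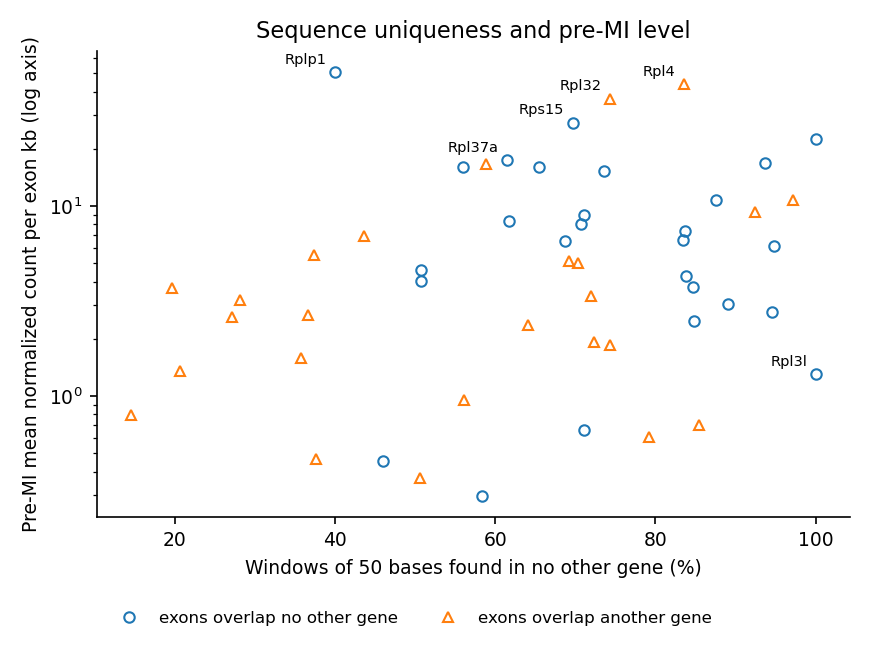
Each point is 1 of the 52 genes; the x axis gives the share of its 50-base windows found in no other gene (%), the y axis its mean normalized count per exon kb over the 3 pre-MI libraries on a log axis. Rpl3l is at 100% unique and at 1.30, while Rplp1, the highest at 50.7, is at 40.0% unique.

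Summed over the 52 genes, the normalized count was 713, 758 and 813 in the pre-MI libraries and 765 and 736 at day 1. It was 368, 920 and 292 in day 12 vehicle replicates 1, 2 and 3 and 713, 311 and 413 in day 12 Sfrp2 replicates 1, 2 and 3. Both day 1 libraries lay within the pre-MI range, vehicle replicate 2 lay above it, Sfrp2 replicate 1 lay at its lower edge, and the other 4 day 12 libraries lay at 292 to 413. As a share of the reads outside mitochondrial and satellite-like genes, the 52 genes took 0.400%, 0.436% and 0.414% pre-MI and 0.454% and 0.438% at day 1. They took 0.224%, 0.443% and 0.134% with vehicle and 0.451%, 0.195% and 0.264% with Sfrp2. The exact 95% binomial intervals, which cover counting error only, were 0.421% to 0.466% for vehicle replicate 2 and 0.424% to 0.479% for Sfrp2 replicate 1, against 0.114% to 0.156% for vehicle replicate 3 and 0.178% to 0.213% for Sfrp2 replicate 2. Of all reads they took 0.0122% to 0.0778%, since mitochondrial rRNA took up to 86.7%. In these bulk samples, fewer cells of a type and less RNA per cell cannot be told apart.

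**Figure D2:**
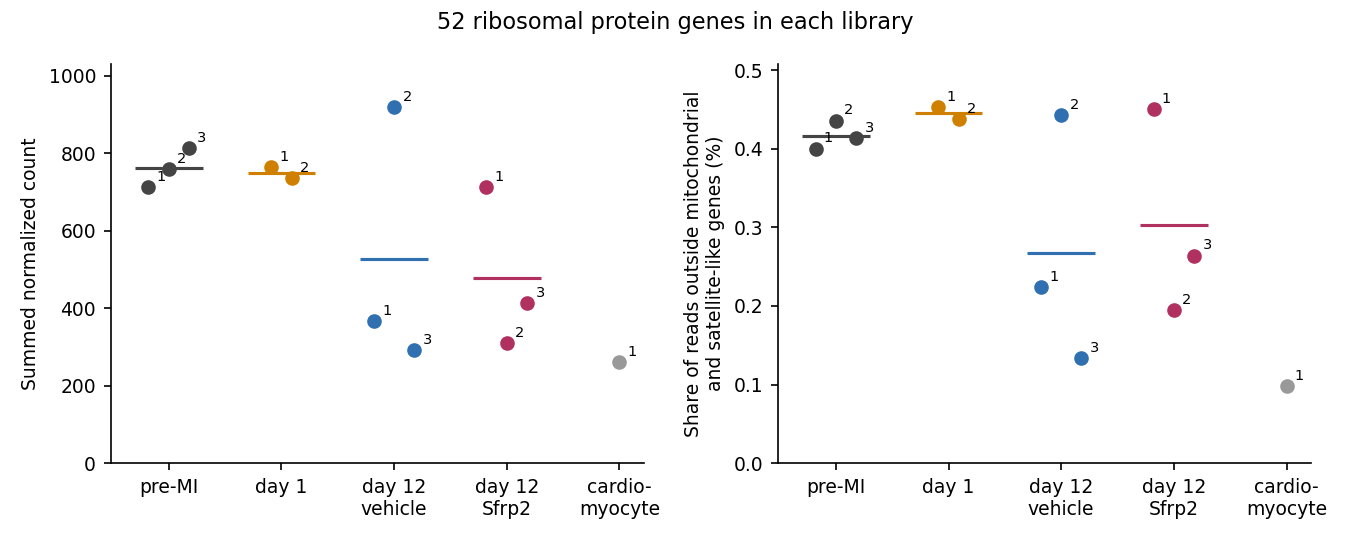
The left panel gives the summed normalized count of the 52 genes and the right panel their share of reads outside mitochondrial and satellite-like genes (%), with a point per library labelled by its replicate number and a line at each group's mean. Pre-MI and day 1 libraries sit between 713 and 813, whereas vehicle libraries spread from 292 to 920 and Sfrp2 libraries from 311 to 713.

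The same 4 day 12 libraries held the largest satellite-like shares, at 12.5% to 38.0% of reads, and their ribosomal protein share was 0.134% to 0.264%. The 7 other c-Kit(+) libraries had at most 4.67% in satellite-like genes and 0.400% to 0.454% in ribosomal protein genes. The order of the genes also differed. Values of the 52 genes in a library had a Spearman correlation with the pre-MI mean of 0.89 to 0.90 pre-MI (each library against the other 2), 0.88 and 0.86 at day 1, 0.90 in vehicle replicate 2 and 0.88 in Sfrp2 replicate 1. It was 0.63 in vehicle replicate 1, -0.09 in vehicle replicate 3, 0.36 in Sfrp2 replicate 2 and 0.66 in Sfrp2 replicate 3. These are descriptions across genes of 1 library. In vehicle replicate 3, which held 156 reads of these genes, 21 were at 0. None of the 52 lay above the 95th percentile of 96 sensory receptor genes per exon kb, taken as a background level, which was 17.9 there. The authors retained genes reaching 10 reads in any library. The 99 sensory receptor genes listed held 5 to 10 reads per pre-MI library and 672 in vehicle replicate 3. They may thus be listed through the libraries where they are high, and their level may overstate background there. The number above that percentile was 51, 47 and 47 in pre-MI replicates 1, 2 and 3. The percentile was 0, 0 and 0.0471 in these, so any read put a gene above it. In day 1 replicates 1 and 2 the number was 44 and 25, with the percentile at 1.19 and 4.52. Vehicle replicate 1 had 26 genes above it and replicate 2 had 49. With Sfrp2 there were 44, 20 and 34. By this count day 1 replicate 2 was near vehicle replicate 1, but the percentile differs between libraries, so the counts do not rank them. The part of the satellite-like reads in the day 12 results was not tested beyond leaving these libraries out.

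**Figure D3:**
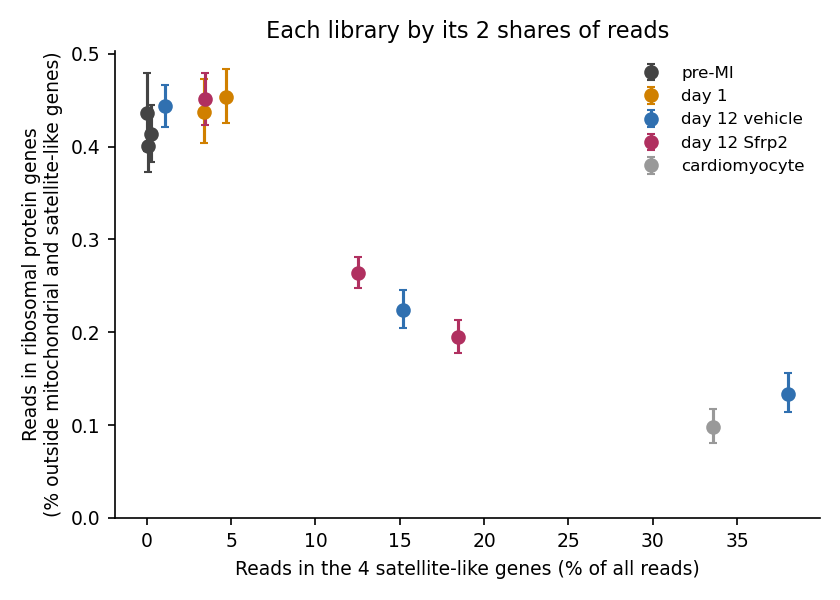
Each point is a library; the x axis is the share of all reads in the 4 satellite-like genes (%), the y axis the share of the remaining non-mitochondrial reads in the 52 ribosomal protein genes (%), with exact 95% binomial intervals. The 7 c-Kit(+) libraries below 5% on the x axis lie between 0.400% and 0.454%, and the other 4 between 0.134% and 0.264%.

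**Figure D4:**
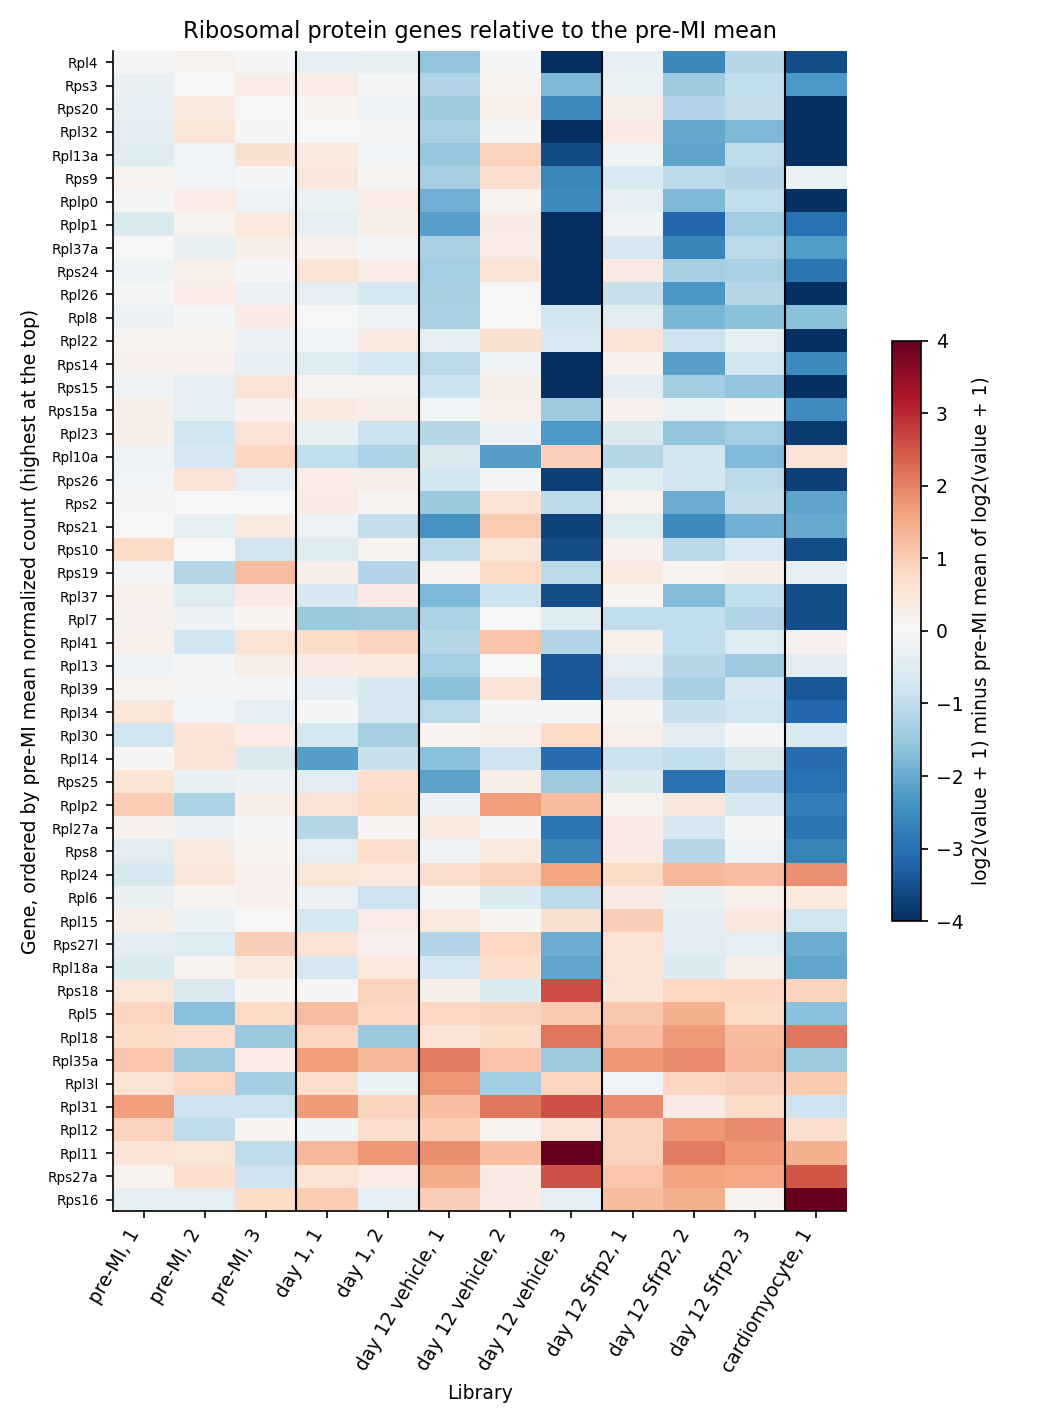
Rows are 50 of the 52 genes ordered by pre-MI mean, columns the libraries, and colour the log2(value + 1) minus the pre-MI mean of log2(value + 1), with colours limited at 4 and -4. Day 12 vehicle replicate 2 and Sfrp2 replicate 1 stay pale like the day 1 libraries. The other day 12 libraries are blue in most upper rows and red in several at the bottom, such as Rpl11 and Rps27a. The rows are ordered by the same pre-MI values from which the differences are taken. Genes with few pre-MI reads, such as Rpl11 with 3 and Rps27a with 2, have little room to fall. Blue above and red below is thus partly built in.

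The first comparison asked how the cells differed 1 day after MI from before. Ribosomal protein genes were near their pre-MI level, and 1 of 52 fell and none rose by limma with Benjamini-Hochberg adjustment over all listed genes at a threshold of 0.05. Over all genes the same rule called 2.65% lower and 21.3% higher, so that the single fall (1.92%) is near the background and the rises are below it. The gene that fell was Rpl7, a large subunit protein. It was at 12.3, 8.96 and 11.4 pre-MI and at 3.23 and 3.44 at day 1, and the groups do not overlap. The log2 difference was -1.44 (SE 0.310, limma adjusted p = 0.0325), and leaving out any 1 of the 5 libraries gave no call. edgeR and DESeq2 called none of the 52 lower, against 4.41% and 1.97% of all genes.

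The median log2 difference of the 52 genes at day 1 was 0.11, against 0.70 over all genes, a distance of -0.59. Where the mean reached 10 it was 0.03 for 26 ribosomal protein genes and -0.31 for all 3740, and it was negative for 12 of the 26 against 65.7% of all. Over all genes with a mean of at least 50, among which Rpl4 was the only ribosomal protein gene, it was -0.74. Groups did not overlap for 7 genes that were lower and 8 that were higher (13.5% and 15.4%), against 10.4% and 39.6% of all genes. With a mean of at least 10 these were 4 and 6 of 26, against 33.3% and 13% of all genes at that level. Rpl4 was at 83.3, 96.8 and 82.9 pre-MI and at 66.1 and 71.2 at day 1, without overlap (log2 difference -0.35, SE 0.153, limma adjusted p = 0.188). It did not pass the threshold.

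Rpl14 (-1.54), Rpl10a (-1.10), Rpl11 (1.54), Rpl35a (1.49) and Rpl31 (1.29) had the most negative and most positive log2 differences among the genes that did not pass. Rpl11 rested on 3 reads pre-MI. The large subunit genes had a median log2 difference of -0.09 and the small subunit genes of 0.23, with no test of that difference. At the same time 11 of 16 cardiomyocyte and 9 of 14 endothelial marker genes fell, and 13 of 16 macrophage and 7 of 8 mesothelial marker genes rose. Over all genes 2.65% fell and 21.3% rose, and of genes with a mean of at least 50 35.5% fell. Summed cardiomyocyte markers were 3050 to 5348 pre-MI and 825 and 1004 at day 1, and summed macrophage markers were 14.8 to 30.5 and 357 to 507. The part of these markers in the ribosomal protein values was not tested.

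At day 12 with vehicle, no ribosomal protein gene passed against pre-MI by limma, where 0% of all genes did, and 3 lower and 1 higher had an unadjusted p under 0.05. DESeq2 called 0 of the 52, where it called 0.927% of all genes lower and 6.14% higher. edgeR called 1, which was higher, where it called 12.3% of all genes higher. The authors' deposited table gives 1, Rpl11, with an adjusted p of 0.0147, and 25.7% of all genes pass there. The median log2 difference was -0.77, against 1.00 over all genes and -1.65 over genes with a mean of at least 50. It was negative for 38 of 52 genes (73.1%), against 26.8% of all genes. Where the mean reached 10 it was -1.23 for 25 ribosomal protein genes and -0.27 for all 4400, and it was negative for 23 of the 25 against 58.3% of all. Where the pre-MI mean alone reached 10 it was -1.36 for 27 ribosomal protein genes and -0.70 for all 3572. There it was negative for 100% of the 27 against 79.0% of all. That filter uses the pre-MI values from which the difference is taken, so it favours falls in both sets. Groups did not overlap for 3 genes that were lower and 2 higher (5.77% and 3.85%), against 7.08% and 26.3% of all genes. At an unadjusted p under 0.05 were 33.8% of all genes.

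The vehicle libraries were unlike each other, with replicate 2 near the pre-MI level and the others low. Rpl4 was at 28.8, 82.2 and 3.74 in replicates 1, 2 and 3 against 82.9 to 96.8 pre-MI (log2 difference -1.96, SE 0.851, limma adjusted p = 0.139). Rplp1 was at 4.67, 30.4 and 0, and Rplp0 at 6.23, 28.6 and 3.74, so that replicate 2 lay within the pre-MI range and the others below it. Rpl13a, which in human cells can leave the ribosome to join a translation-silencing complex, was at 10.9, 64.5 and 1.87 against 23.7 to 51.1. Rpl37 was at 2.34, 5.48 and 0 against 7.17 to 13.6, without overlap (-2.07, SE 0.806, limma adjusted p = 0.116). Rpl14 was at 1.56, 3.65 and 0 against 4.54 to 10.8, also without overlap.

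Rpl11 went the other way, at 6.23, 3.65 and 46.7 against 1.89, 1.79 and 0 pre-MI (log2 difference 2.55, SE 0.964, limma adjusted p = 0.109). The highest value was in replicate 3, and per kb it did not exceed the sensory receptor level of that library, which may overstate background there. Without replicate 2, 15 of the 52 genes were called lower, against 6.5% of all genes. Without replicates 1 and 3 none was lower or higher, against 0.907% and 14.9% of all genes, and the median log2 difference was 0.25, against 0.26 over all genes. The last fit has 1 vehicle library, which is assumed to vary like the pre-MI libraries. With a weight per library 19 were lower and 1 higher, against 8.86% and 45.5% of all genes. These shares of all genes are not matched on level. Of the 52 genes, 32, 5 and 35 lay below the pre-MI range in replicates 1, 2 and 3. With a mean of at least 10 over the libraries, 18, 1 and 19 of 20 did, against 45.4%, 30.2% and 46.1% of all 4445 genes at that level.

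At day 12 with Sfrp2, 8 ribosomal protein genes fell and 4 rose against pre-MI by limma. In either direction 57.6% of all genes passed. At an unadjusted p under 0.05 were 16 lower and 5 higher of the 52, against 63.4% of all genes. Those that fell (15.4%) compare with 8.82% of all genes, and those that rose (7.69%) with 48.8%. Of genes whose mean reached 10, 6 of 19 ribosomal protein genes fell (31.6%), against 1240 of 3925 genes (31.6%), so at like level their share was that of the background. The median log2 difference was -0.57, against 1.27 over all genes and -1.83 over genes with a mean of at least 50. Where the mean reached 10 it was -0.94 for the 19 and -0.49 for all 3925, and it was negative for 18 of the 19 against 67.2% of all. Where the pre-MI mean alone reached 10, it was negative for 96.3% of 27 ribosomal protein genes against 82.1% of all 3572. Of these, 29.6% and 36.7% fell. This filter keeps genes by their pre-MI values, so it favours falls in both sets.

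Of the large subunit, Rpl26, Rpl7, Rpl8, Rpl37a and the stalk base Rplp0 fell. Rpl26, a protein by the exit tunnel, was at 21.8, 28.7 and 19.3 pre-MI and at 12.0, 3.77 and 9.81 with Sfrp2, without overlap (log2 difference -1.45, SE 0.425, limma adjusted p = 0.0181). Rpl7 was at 4.93, 5.02 and 4.09 against 8.96 to 12.3, alike in all 3 Sfrp2 libraries (-1.06, SE 0.321, limma adjusted p = 0.0211). Rpl8 fell by 1.31, Rpl37a by 1.45 and Rplp0 by 1.06 on the log2 scale. In each of these the lowest value was in Sfrp2 replicate 2 except for Rpl7, and no Sfrp2 value overlapped the pre-MI range. Rpl4, at 69.7, 13.8 and 38.8, had no overlap but did not pass (-1.35, SE 0.514, limma adjusted p = 0.0508).

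Of the small subunit, Rps9, Rps21 and Rps15 fell. Rps9, a protein of the mRNA entry channel, was at 30.3, 25.1 and 26.1 pre-MI and at 17.6, 12.6 and 11.4 with Sfrp2 (log2 difference -0.94, SE 0.288, limma adjusted p = 0.0221). Rps21 was at 8.45, 1.26 and 2.45 against 8.96 to 15.9 (-1.64, SE 0.550), the largest fall of the 52. Rps15, whose tail reaches the decoding centre, was at 12.0, 5.65 and 4.91 against 12.5 to 24.99 (-1.13, SE 0.424). Rps25 and Rplp1 both had a log2 difference of -1.58 and did not pass.

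The 4 that rose were Rps27a, Rpl11, Rpl12 and the row named Rpl24, and without that row the count is 3 of 51. Rpl35a, at 1.65, had the most positive log2 difference of the 52 but did not pass (SE 0.628, limma adjusted p = 0.0513). Rps27a was at 0.946, 1.79 and 0 pre-MI and at 2.82, 4.39 and 4.09 with Sfrp2, without overlap (log2 difference 1.42, SE 0.448, limma adjusted p = 0.0247). Rpl11 was at 2.82, 7.53 and 5.72 against at most 1.89 (1.59, SE 0.540, limma adjusted p = 0.0338). Rpl12 was at 2.82, 5.65 and 6.54 against 2.84, 0 and 1.14, which overlaps (1.51, SE 0.555, limma adjusted p = 0.0446). Rpl24 was at 9.15, 13.8 and 13.1 against 2.84, 7.17 and 5.68. These 4 held 2 to 12 reads over the 3 pre-MI libraries. Of the 27 genes whose exons overlap no other gene 8 fell and 1 rose, and of the 25 with an overlap none fell and 3 rose, with no test of that difference. Of all genes, 8.82% fell and 48.8% rose. The level per kb exceeded the sensory receptor background in 1 Sfrp2 library for Rpl11 and in none for Rps27a, Rpl12 and Rpl24. That level may overstate background in libraries where the sensory receptor genes held many reads. With each library centred on its median, Rpl24 and Rps27a had log2 differences of -0.36 and -0.05.

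These counts depend on single libraries. Those lower were 20 without Sfrp2 replicate 1, 2 without replicate 2 and 0 without replicate 3, and 2 and 4 without pre-MI replicates 1 and 3. Those higher were 2, 0 and 1 without Sfrp2 replicates 1, 2 and 3, and 2 without pre-MI replicate 3. Over all genes these fits called 5.79% to 9.05% lower and 37.4% to 48.3% higher. Without Sfrp2 replicates 2 and 3 the median log2 difference of the 52 genes was 0.16, against 0.95 over all genes. Both medians rest on 1 Sfrp2 library. edgeR called 22 lower and 0 higher and DESeq2 2 lower and 0 higher, where 13.7% and 7.01% of all genes were lower. No gene of the 52 passes 0.05 in the authors' deposited table, where the smallest adjusted p among them is 0.0853 and 33.5% of all genes pass. Of the 52 genes, 15, 36 and 28 lay below the pre-MI range in replicates 1, 2 and 3. With a mean of at least 10 over the libraries, 7, 18 and 17 of 20 did, against 39.7%, 46.7% and 44.7% of all 4445 genes at that level.

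**Figure D5:**
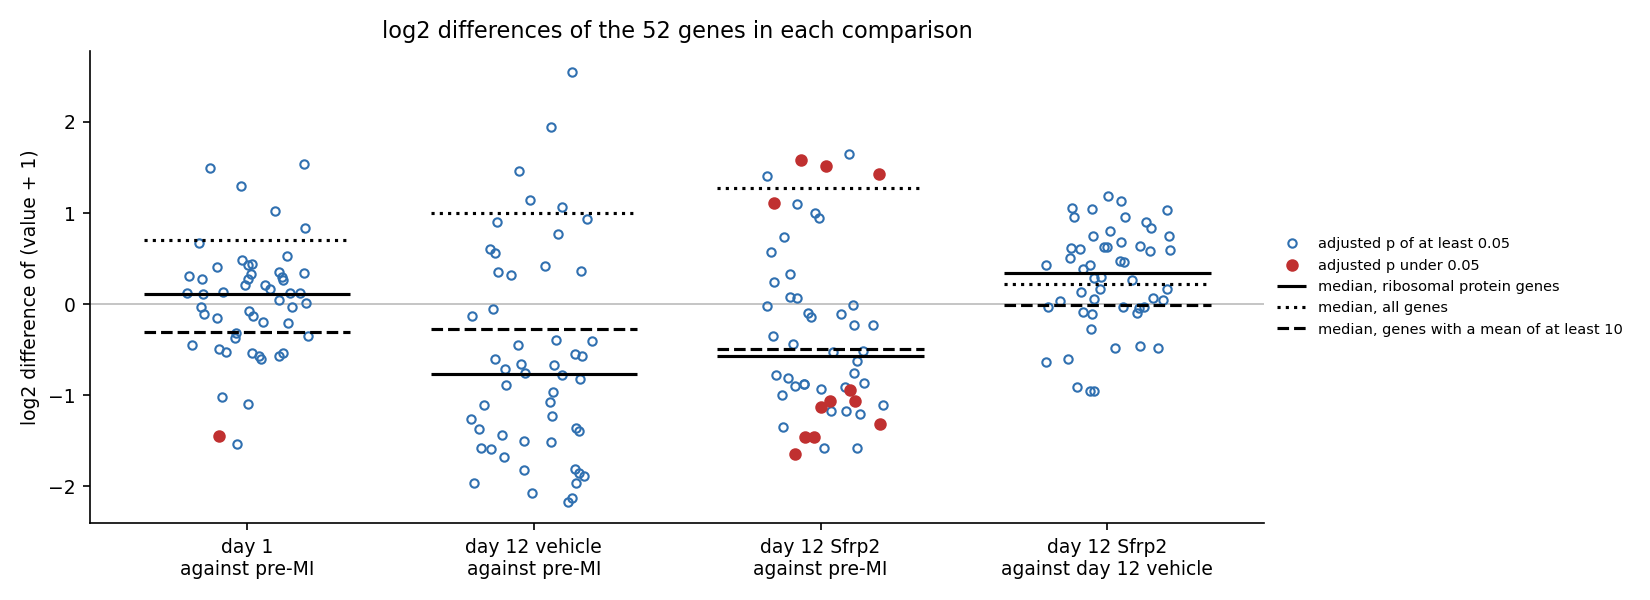
Each circle is 1 of the 52 genes, the y axis its log2 difference of (value + 1), and filled red circles have a limma adjusted p under 0.05; lines give medians of the 52 genes (solid), of all genes (dotted) and of genes with a mean of at least 10 (dashed). The median of the 52 genes lies below that of all genes in the 3 comparisons with pre-MI.

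The treated and the vehicle group of day 12 were then set against each other, to see what Sfrp2 changed. No ribosomal protein gene passed by limma, as 0% of all genes did, and none had an unadjusted p under 0.05, against 1.44% of all genes. edgeR and DESeq2 called none and the authors' deposited table gives none. No gene had groups without overlap, against 2.33% lower and 4.93% higher of all genes, or 4.14% and 2.03% of those whose mean reached 10. The log2 difference was negative for 16 of 52 (30.8%), against 35.6% of all genes. It was negative for 4 of the 17 whose mean reached 10, against 50.4% of all genes at that level. The median log2 difference was 0.34, against 0.22 over all genes and -0.08 over genes with a mean of at least 50, but -0.19 by edgeR and -0.33 by DESeq2.

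Among the genes with the smallest p were Rpl12 (5.003 ± 1.94 with Sfrp2 and 2.07 ± 0.964 with vehicle, SD, n = 3 each), Rpl14 (3.72 ± 0.700 and 1.74 ± 1.83) and Rpl37 (6.23 ± 4.53 and 2.61 ± 2.75). Rpl37 had the most positive log2 difference, 1.19 (SE 0.846), and Rpl11 the most negative, -0.96 (SE 0.860), both with a limma adjusted p of 1.00. Rps24 and Rplp2 stood at 1.06 and -0.91. A weight per library called 1 lower and 4 higher, where 7.2% and 7.15% of all genes were called, so that the 4 (7.69%) are near the background. The 3 comparisons with pre-MI share the pre-MI libraries, so their values are given side by side only.

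Other genes of translation were compared by lists chosen with earlier results of these data known. At day 12 with Sfrp2, 9 of 36 initiation factor genes fell and 1 rose, 2 of 8 elongation factor genes fell and 1 rose, and 11 of 22 abundant housekeeping genes fell and 1 rose. The shares that fell were 25%, 25% and 50%, against 8.82% of all genes. Of those with a mean of at least 10 31.6% fell, and of those with a mean of at least 50 84.0%. The lists were not matched to these sets on level. The shares that rose were 2.78%, 12.5% and 4.55%, against 48.8% of all genes. Pabpc1, which binds poly(A) tails, fell from 68.2 ± 13.7 to 23.2 ± 11.7, and Eef2, which moves the ribosome along the mRNA, from 137 ± 40.3 to 57.9 ± 24.7 (SD, n = 3 each). The median log2 difference was -0.47 for initiation, -0.54 for elongation and -1.28 for housekeeping genes, beside -0.57 for the 52 ribosomal protein genes. Of 42 ribosome biogenesis genes 3 fell and 14 rose (median 0.71), and of 41 mitochondrial ribosomal protein genes 4 fell and 6 rose (0.27). The shares that rose, 33.3% and 14.6%, were below the 48.8% of all genes. Of 21 regulators of ribosomal protein synthesis 4 fell and 3 rose (19.0% and 14.3%). Eif4ebp2, a repressor of cap-dependent initiation controlled by mTOR, fell from 30.1 ± 6.12 to 4.80 ± 2.22. The receptor for activated C kinase Gnb2l1, a ribosomal protein outside the naming rule, was at 38.3 ± 21.9 against 58.2 ± 13.7 and did not pass.

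At day 1, 1 of 36 initiation factor genes fell and 1 rose (2.78% each, against 2.65% and 21.3% of all genes), and no elongation factor or housekeeping gene passed. Eif4g2, which supports cap-independent initiation, fell from 222 ± 40.7 (n = 3) to 99.5 ± 30.4 (n = 2). Of ribosome biogenesis genes 4 rose (9.52%, below the share of all genes) and none fell, and Gabpa, an ETS factor, and Eif4ebp2 fell among the 21 regulators (9.52%). In the Sfrp2 comparison with pre-MI, 13 of 16 cardiomyocyte and 13 of 14 endothelial markers fell, and 2 and 1 of them rose. Of macrophage markers 15 of 16 rose. Over all genes 8.82% fell and 48.8% rose, and of genes with a mean of at least 50 84.0% fell. Of erythroid markers 7 of 8 fell, and of lymphocyte and mesothelial markers 9 of 10 and 7 of 8 rose, as did 77 of 99 sensory receptor genes. The part of these cell type markers in the ribosomal protein values was not tested. With vehicle at day 12 none of these lists had a gene that passed, and the medians were -0.56 for initiation, -0.52 for elongation and -1.66 for housekeeping genes, beside -0.77 for the 52.

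The library labelled cardiomyocyte held 118 reads of the 52 genes, a share of 0.0977% (exact 95% binomial interval 0.0809% to 0.117%) of the reads outside mitochondrial and satellite-like genes, and 24 genes were at 0. Its satellite-like share was 33.6%. Its 16 cardiomyocyte marker genes summed to 301 normalized counts, below the 363 to 5348 of the c-Kit(+) libraries, with Myh6 at 4.43, Actc1 at 4.43 and Mb, Ckm and Pln at 0. Other markers were present, with Tnnt2 at 104 and Ttn at 124, below every pre-MI value (at least 412 and 329). Myh7, at 24.4, lay above its 0 to 2.27 pre-MI but below the 41.1 of day 12 vehicle replicate 3. These markers thus did not all go the same way against pre-MI. With 1 library there is no test. Rpl3l, the striated muscle form, was at 4.43 on 2 reads, and 0 to 7.79 in the c-Kit(+) libraries. The values of the 52 genes had a Spearman correlation of -0.02 with the pre-MI mean.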

How the data were processed

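RNA of 11 c-Kit(+) cell libraries and 1 cardiomyocyte library was amplified from total RNA (PicoPure, Ovation Pico WTA V2) before sequencing, per the labels' protocols. Per the labels' protocols and the series' design text, the authors trimmed reads with Trim Galore and cutadapt (20 nt or longer retained), aligned them to GRCm38 with STAR, retained those with 1 genomic location, compiled gene counts with HTSeq, retained genes reaching 10 reads in any library and normalized with DESeq2. Neither tool versions nor strand settings were found in the labels. The deposited signal values are the authors' gene counts divided by a size factor: dividing by the value of 1 read gave whole reads for 100% of values within 0.001, so reads could be recovered. The authors' deposited tables also hold log2 fold changes and p-values. Table columns named Ctrl were taken as pre-MI from the table names.

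The main test was limma 3.58.1 (R 4.3.3, trended variance) on log2(value + 1), libraries of the 2 groups only, with p-values adjusted by Benjamini-Hochberg over 15223 genes and called under 0.05. Alternatives were edgeR 4.0.16 and DESeq2 1.42.0 on recovered reads, other filters, scalings and pseudocounts, and leaving out each library. Scripts were tested on simulated data. Uniqueness used windows of 50 bases of GENCODE M21 transcripts, and exon length was known for 98.94% of genes. Total reads were 190259 to 3570993 per library. Reads carry no molecular identifiers, so intervals cover counting error only. The ribosomal protein genes and the lists were chosen with earlier results of these data known. Named genes were the 6 highest pre-MI per kb, the 4 of smallest p and 3 of largest change each way per comparison, those that passed against the majority, and a set of stalk, Mdm2-linked, ubiquitin-fusion and paralogue genes. Others, such as Rpl8 and Rps16, were chosen after their values were seen. For 2 genes that this rule names, single values are not reported here, and they remain in all counts and medians.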

Additional observations from a re-analysis of the deposited data

Results flagged for a closer look

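Rps16, a small subunit gene, stood at 42.07 normalized counts in the library labelled cardiomyocyte, which no comparison uses. That is 19 reads, with an exact 95% Poisson interval of 25.3 to 65.7 normalized counts, which covers counting error only. The highest c-Kit(+) library had 2.51. Lone high genes occurred elsewhere in this cardiomyocyte library, such as C1qc at 655 with C1qa at 4.43 and C1qb at 0, so this is not particular to Rps16. With 1 library there is no test, and 33.6% of its reads lay in satellite-like genes, whose part in the Rps16 value was not tested.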

How the results depend on the processing

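Shares in brackets here are of all genes tested. The number of genes called lower at day 1 (1) was 0 of 26 with a mean of at least 10 (11.6%) and 0 of 1 with a mean of at least 50 (45.0%). It was also 0 with all 11 libraries in the fit (0.42%), a weight per library (1.02%), edgeR (4.41%), DESeq2 (1.97%) and the replicate block (0%). With each library centred on its median it was 9 of 52 (14.5%). The median (0.11) was 0.028 and -0.35 (mean of at least 10 and 50), -0.96 (centred), 0.22 (scaled to reads outside mitochondrial and satellite-like genes), 0.0018 (TMM) and -0.083 (edgeR). For vehicle against pre-MI, 1 was lower with all 11 libraries (4.3%), 1 with the replicate block (2.23%) and 19 with weights (8.86%). There 1 was higher with all 11 libraries (23.6%), with weights (45.5%) and by edgeR (12.3%). The median (-0.77) was -0.41 (pseudocount 5), -1.96 (mean of at least 50), -2.00 (centred), -0.29 (edgeR), -0.39 (DESeq2) and 0.25 (without the 4 libraries with at least 10% satellite-like reads, chosen after seeing the data). For Sfrp2 against pre-MI, lower were 14 with pseudocount 5 (9.41%), 38 centred (29.6%), 4 scaled (7.02%) and 14 by TMM (10.9%). With a mean of at least 50 it was 1, the only gene of the 52 tested (86.1%). Lower were also 1 with all 11 (4.92%), 13 with the replicate block (9.12%), 25 with weights (12.3%), 22 by edgeR (13.7%) and 2 by DESeq2 (7.01%). Higher were 2 with pseudocount 0.5 (47.0%). None was higher in the mean filters of 10 and 50 (11.8% and 4.0%), centred (17.7%), by TMM (42.9%), with all 11 (38.7%), by edgeR (42.0%) or by DESeq2 (35.7%). The median was -0.94 (mean of at least 10), -1.35 (50), -2.04 (centred), -0.95 (edgeR) and 0.16 (without the 4). Weights gave 1 lower (7.2%) and 4 higher (7.15%) for Sfrp2 against vehicle, where no ribosomal protein gene has a mean of at least 50. The share of reads was 0.0427% in the median over all listed genes. Reversed were Rpl24 (-0.36) and Rps27a (-0.047) for Sfrp2, centred. The causes were not tested. At day 1, leaving out 1 library gave medians of -0.0046 to 0.13. Without 1 pre-MI library 0 were lower (1.08% to 1.17%) and 0 higher (12.0% to 13.9%). For vehicle, leaving out 1 library gave 0 to 15 lower (0% to 6.5%), 0 higher (0% to 35.7%) and medians of -1.41 to -0.31. For Sfrp2 it gave 0 to 20 lower (5.79% to 9.05%), 0 to 5 higher (37.4% to 48.3%) and medians of -0.85 to -0.31. For Sfrp2 against vehicle it gave 0 lower and 0 higher (0% each) and medians of -0.28 to 0.75. Deviations of same-numbered libraries had correlations of -0.04 to 0.02 against pre-MI and -0.63 to -0.03 between day 12 groups, over 4445 genes. Libraries of unlike satellite-like share are among them, so these values cannot show whether replicate numbers pair libraries. With 156 to 1511 reads per c-Kit(+) library in the 52 genes, depth limits single genes.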
